A study of Capitella teleta with 10 samples.

Results

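A group of 100 transcript models of the segmented worm *Capitella teleta* was present from the 64-cell embryo to the stage 5 larva and lower in both libraries of the stage 7 larva than in any library before it. These 100 transcripts were chosen by their values from 41221 transcript models, here called features. A feature was eligible when both 64-cell libraries and all 4 libraries of stages 4tt and 5 held a normalized read count of at least 50 and the gastrula mean was at least 50% of the stage 5 mean. The deposited normalized read count is a number of reads assigned to a feature after scaling between libraries. Of the 11479 eligible features, 1752 were lower in both stage 7 libraries than in all 8 earlier libraries. They were ranked by a score, the log2 ratio of the lowest of the 8 earlier values to the higher of both stage 7 values, with 1 added to each, and the first 100 were taken. The score and every comparison with stage 7 in the same rows are therefore a description of the choice, and no test is drawn from them.

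The libraries were made from whole, untreated embryos and larvae of *C. teleta*, whose larva does not feed and changes into the juvenile worm gradually. Duplicates were collected at each of 5 stages, the 64-cell stage, the gastrula and stages 4tt, 5 and 7, which gave 10 bulk libraries. The labels call the first 3 stages embryo and the last 2 larva, and the study counts stage 4tt among the larval stages. Each library pools many animals, so that fewer cells of a type and less RNA per cell cannot be told apart. The paper describes pairing within replicates for another annelid, *Owenia fusiformis*, and says that duplicates of *C. teleta* were likewise collected. Whether *C. teleta* libraries with the same replicate number came from the same brood is not stated outright. P-values measure only the spread between these libraries.

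As background, the egg of an animal is stocked with maternal transcripts that run the first cleavages. Most are cleared as the embryo begins to transcribe its own genome, at a pace that differs between transcripts. A transcript seen at the 64-cell stage and again in the larva may be maternal RNA that persists, RNA made anew by the embryo, or both, and a normalized read count does not separate these. The members carry identifiers without gene names, so they are described by their time courses and by the gene model they belong to.

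Most of the 100 transcripts were reduced at stage 7 rather than lost, and by the rule itself all were present before the larva. No member was at 0 at stage 7, and 56 were still at a normalized read count of 50 or more in both stage 7 libraries, 16 of these at 1000 or more in both. Both libraries were below 50 for 34 members, and below 10 for 3. The rule asked for 50 or more at the 64-cell stage, and 45 members had their highest mean there, 40 in the gastrula and 15 at stage 4tt. No member had its highest mean at stage 5. They are therefore called here transcripts present through stage 5 and lower at stage 7.

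The median of the 100 members was 2421 and 2865 in the libraries of the 64-cell stage and 2368 and 2107 in those of the gastrula. It was 1205 and 1066 at stage 4tt, 542 and 399.8 at stage 5, and 62.2 and 76.5 at stage 7. The libraries of each stage lay closer to each other than to those of the next stage from the gastrula on. Over the same libraries the median of all 11479 eligible features stayed between 796 and 1105. The 100 members together took 2.47% and 2.57% of the summed normalized counts of the 64-cell libraries, 1.16% and 1.04% at stage 5, and 0.269% and 0.32% at stage 7. The 3 members most abundant at stage 5 made up between 31.1% and 70.0% of that sum, depending on the library.

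**Figure D1:**
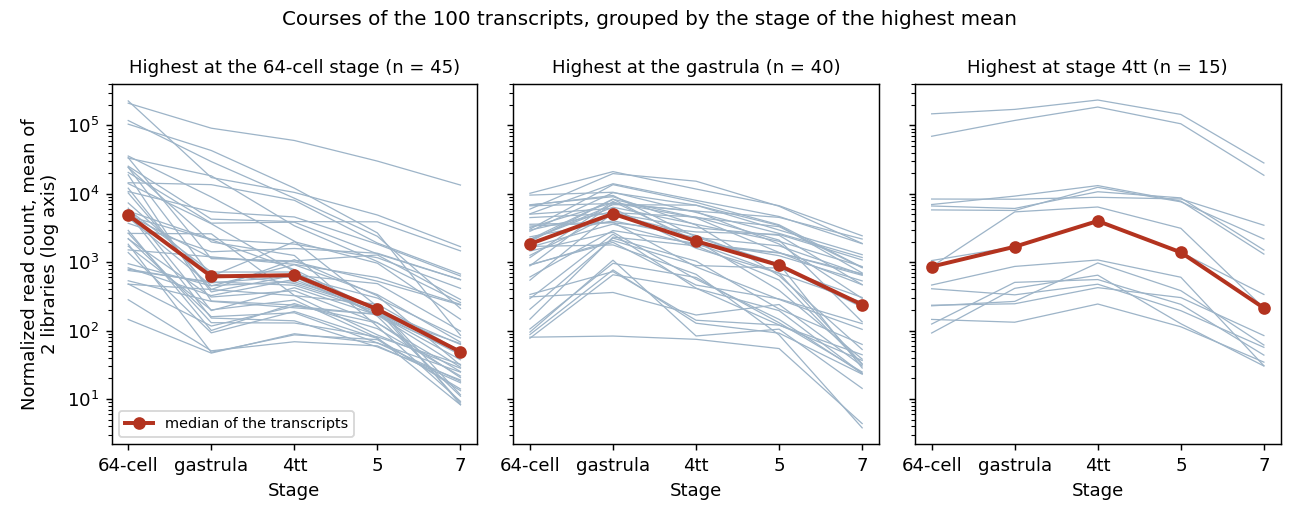
Normalized read count (log scale) of each of the 100 members by stage, as means of 2 libraries, in panels by the stage of the highest mean, with the median of each panel as a thick line. The 45 members highest at the 64-cell stage had a median of 4889 there and 620 in the gastrula, while the 40 and 15 members highest in the gastrula and at stage 4tt started lower and came down later.

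At stage 7 the members kept a median of 25.1% of their stage 5 mean, from 3.03% to 49.7%. Less than 10% was left of 18 members, from 10% to 25% of 31, and at least 25% of the other 51. Against the stage of their highest mean, a median of 4.77% was left, with a range from 0.023% to 39.0%. The median share of the stage 5 mean left was 25.2% in the members highest at the 64-cell stage, 27.0% in those highest in the gastrula and 19.5% in those highest at stage 4tt. Their shares of the highest mean left were further apart, with medians of 0.956%, 6.14% and 10.1%.

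The member with the highest score was CTELG00000003320.1, with a score of 4.23. Its normalized read count was 34616 and 36774 at the 64-cell stage, 9445 and 8544 in the gastrula, 2702 and 1365 at stage 4tt, 263 and 189 at stage 5, and 9.11 and 7.45 at stage 7. The libraries of no stage overlapped those of another, and each stage was below the one before. CTELG00000024343.1, with the next score of 4.12, followed the same order from a higher level. It held 108628 and 100108 at the 64-cell stage, 47429 and 38561 in the gastrula, 16998 and 7223 at stage 4tt, 3697 and 1669 at stage 5, and 94.7 and 76.4 at stage 7.

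CTELG00000021843.1, with the third highest score (3.66), had a different course. It was at 519.9 and 698 at the 64-cell stage, 3313 and 2498 in the gastrula, 2701 and 1069 at stage 4tt, 955 and 428 at stage 5, and 33.0 and 32.5 at stage 7. The stage 4tt and gastrula libraries overlapped for this member, and the libraries of replicate 2 were the lower ones at stages 4tt and 5. The members with the fourth and sixth scores, CTELG00000000273.1 and CTELG00000000274.1, carry neighbouring identifiers. In each, the gastrula level was like the 64-cell level, and CTELG00000000274.1 stood higher than CTELG00000000273.1 at both stages. CTELG00000000273.1 went from 1823 and 1580.1 at the 64-cell stage to 1852 and 1728 in the gastrula, 626 and 706 at stage 4tt, 75.3 and 97.8 at stage 5, and 1.31 and 6.27 at stage 7. CTELG00000000274.1 went from 7410.3 and 6441 to 9067 and 9094, then to 3949 and 3056, 682 and 587, and 41.3 and 64.8 at the same stages.

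CTELG00000004732.1 (score 3.37) was the member whose stage 7 libraries stood furthest apart on the log2 scale, at 56.4 and 0.424. The lower of these is about the value of a single read, since the smallest value above 0 in that library was 0.422. Its earlier values were 6274 and 7381 at the 64-cell stage, 5993 and 12951 in the gastrula, 2064 and 2595 at stage 4tt, then 1284 and 594 at stage 5. Its gene has another transcript model, described further on.

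**Figure D2:**
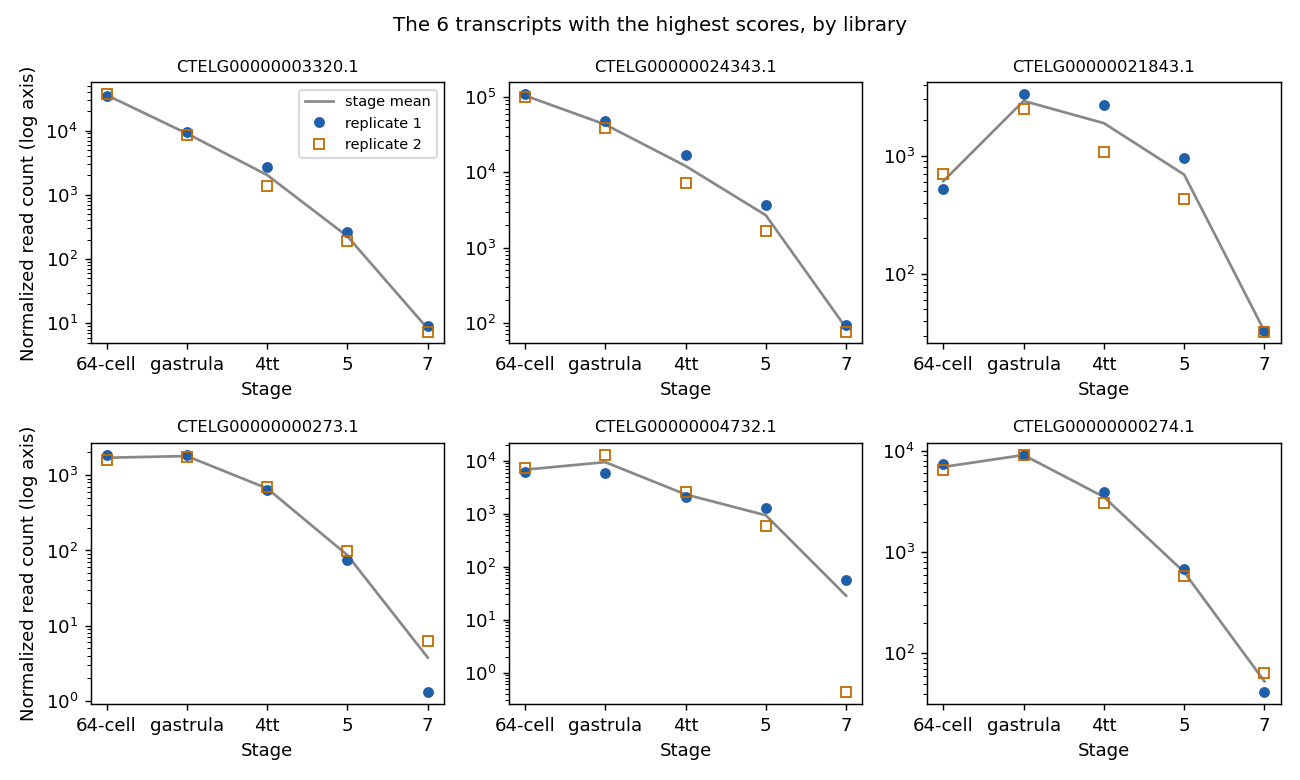
Normalized read count (log scale) in each of the 10 libraries for the 6 members with the highest score, with circles for replicate 1, squares for replicate 2 and a line through the stage means. In CTELG00000004732.1 the stage 7 libraries are at 56.4 and 0.424, whereas in the other 5 members they lie closer together, below all earlier libraries.

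The 3 members that were most abundant at stage 5 were also those with the highest level left at stage 7. CTELG00000001275.1 was at 153641 and 141897 at the 64-cell stage, 175270.0 and 167859 in the gastrula, 299943 and 170421 at stage 4tt, 204312 and 85316 at stage 5, and 24009 and 32488 at stage 7, or 19.5% of the stage 5 mean. CTELG00000028625.1 was at 66375 and 72497, 109276 and 127190.0, 154133 and 217308, 92472 and 118878, and 15673 and 21685 at the same stages, with 17.7% left. Both had their highest mean at stage 4tt, and their stage 7 libraries, although below all earlier ones, were among the 16 members still at 1000 or more.

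CTELG00000011525.1 was highest at the 64-cell stage instead. It was at 214089 and 208778 at the 64-cell stage, 94283 and 87899.7 in the gastrula, 64027 and 56458 at stage 4tt, 30393 and 29789.8 at stage 5, and 14451 and 12418 at stage 7, which left 44.6% of the stage 5 mean. CTELG00000010102.1 was at 7042 and 6242, 5249 and 6975, 10296 and 11158, 8432 and 9015, and 1442 and 1574, with 17.3% left. Its stage 4tt and stage 5 libraries lay close together, and its stage 7 libraries stood apart from all of them.

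The score at the border of the 100 was low and close to even. The last 3 members inside, CTELG00000001409.1, CTELG00000024656.1 and CTELG00000009707.1, scored 0.937, 0.934 and 0.932. The first 3 features outside, CTELG00000003862.1, CTELG00000012604.1 and CTELG00000001747.1, scored 0.932, 0.929 and 0.926. CTELG00000009707.1 was at 2284 and 2987 at stage 5 and at 1197 and 1149 at stage 7. CTELG00000003862.1, just outside, was at 224 and 258 at stage 5 and at 117 and 108 at stage 7. The features on both sides of the border were thus alike in score, and nothing in the values sets the 100th apart from the 101st. The median score of the 100 was 1.26, a fold of 2.41 between the lowest earlier library and the higher stage 7 library.

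The steps before stage 7 were compared in a linear model over all 10 libraries, on the scale of log2 (normalized read count + 1), with limma and the adjustment of Benjamini and Hochberg over the 35526 features tested. Features past a log2 fold change of 1 in either direction, with an adjusted p below 0.05, were called. The rule set floors on these stages, bounded the gastrula mean against stage 5 and took their lowest library into the score. It did not otherwise compare these stages with each other. Calls of members in these steps, and their adjusted p values, are therefore a description and no independent test. The same counts are given for the eligible features, which met the same floors. All 100 members passed the filter on low values. They had to, since the rule asks for a value of at least 50 in 6 libraries.

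From the 64-cell stage to the gastrula the members parted in both directions. The difference between these stages had a median log2 value of 0.03 over the members, with quartiles of -2.03 and 1.13, against a median of 0.30 and quartiles of -0.87 and 1.28 over the eligible features. Calls were made higher for 28 members, beside 22.3% of all features tested and 31.1% of eligible ones, and lower for 36, beside 21.9% and 22.5%. The 36 members that fell were all among the 45 with their highest mean at the 64-cell stage, which is what that grouping would hold by its making. CTELG00000028781.1 fell the furthest, from 17092 and 20751 at the 64-cell stage to 294 and 249 in the gastrula, with a log2 change of -6.12 (SE 0.31, limma adjusted p = 1.17e-06). It then held 309 and 164 at stage 4tt, 139 and 120.0 at stage 5, and 27.0 and 23.3 at stage 7.

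CTELG00000003879.1 fell from 23144 and 25448 to 363 and 884, with a log2 change of -5.42 (SE 0.38, adjusted p = 5.83e-06), and was higher again afterwards. It was at 2151 and 1837 at stage 4tt, 1135 and 800.0 at stage 5, and 120.2 and 172 at stage 7. The log2 change in the rise from the gastrula to stage 4tt was 1.81 (SE 0.38, adjusted p = 0.00932), which became adjusted p = 0.0503 without the stage 4tt library of replicate 1. A call lower and later a call higher before stage 7 was made for 3 members, beside 4.53% of all features tested and 0.558% of eligible ones, and a call higher and later lower for 15, beside 2.51% and 4.90%.

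Among the members that rose into the gastrula, CTELG00000021844.1 went from 144 and 149.7 to 2582 and 2085, with a log2 change of 3.97 (SE 0.39, adjusted p = 3.99e-05). It was at 2380.3 and 1091 at stage 4tt, 680.4 and 419 at stage 5, and 26.1 and 37.8 at stage 7. CTELG00000006726.1 rose from 168 and 242 to 1152 and 3349.9, with a log2 change of 3.28 (SE 0.52, adjusted p = 0.000718). The gastrula libraries of CTELG00000006726.1 stood apart from each other but above both 64-cell libraries.

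From the gastrula to stage 4tt the members again went both ways. The median log2 difference was -0.33 over the members and -0.35 over the eligible features, with quartiles of -1.02 and 0.33 against -0.76 and 0.11. Calls were made higher for 6 members, beside 10.7% of all features tested and 1.43% of eligible ones, and lower for 19, beside 5.96% and 12.2%. CTELG00000018229.1 fell from 3046 and 2161 in the gastrula to 383 and 271 at stage 4tt, with a log2 change of -2.99 (SE 0.27, adjusted p = 0.000197), and was at 90.5 and 82.8 at stage 5 and 24.4 and 32.0 at stage 7.

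CTELG00000028780.1 had a brief high level in the gastrula, and its gastrula libraries disagreed. It was at 115 and 75.6 at the 64-cell stage, 322 and 1818 in the gastrula, 101 and 65.9 at stage 4tt, 93.8 and 116 at stage 5, and 11.1 and 17.5 at stage 7. The fall from the gastrula to stage 4tt gave a log2 change of -3.21 (SE 0.71, adjusted p = 0.012), which became adjusted p = 0.0683 without the stage 4tt library of replicate 2. CTELG00000004776.1 rose in this step, from 213 and 322 to 1017 and 935, with a log2 change of 1.89 (SE 0.40, adjusted p = 0.00972), which became adjusted p = 0.0762 without the gastrula library of replicate 1. It was then at 415 and 353 at stage 5 and at 35.5 and 87.7 at stage 7.

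From stage 4tt to stage 5 nearly all members had lower means. The mean was lower at stage 5 in 97 of the 100 members, and its median log2 difference was -1.10, against -0.09 over the eligible features and 0.02 over all features tested. Both stage 5 libraries were below both stage 4tt libraries in 79 members, beside 17.9% of all features tested and 28.4% of eligible ones. The stage 5 mean was below 50% of the stage 4tt mean in 58 members and in 2.24% of the eligible features. Any single pair of libraries gave the same direction, with between 86 and 96 members lower at stage 5 and medians from -0.93 to -1.19. The 3 members with a higher mean at stage 5 were CTELG00000028780.1, CTELG00000011071.2 and CTELG00000017749.1.

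Few single members were called in this step. Calls were made lower for 17 members, beside 0.234% of all features tested and 0.453% of eligible ones, so that 17 of the 52 eligible features called lower were members. An unadjusted p under 0.05 with the same fold was found for 52 members, beside 3.08% of all features tested and 1.82% of eligible ones. With limma, 0 members were called higher, beside 0.327% and 0.0261%, and 0 were higher at the unadjusted level, beside 4.57% and 0.227%. The 17 calls were reduced to 0 by leaving out the stage 5 library of replicate 1, to 1 without the stage 4tt library of replicate 1 and to 3 without the stage 5 library of replicate 2. They were also 0 when only both stages compared were in the fit. The other libraries, one at a time, left between 9 and 16 calls.

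The largest called falls in this step were those of CTELG00000003320.1 and CTELG00000000273.1. CTELG00000003320.1 fell by 3.10 on the log2 scale (SE 0.30, adjusted p = 0.00738), which became adjusted p = 0.0642 without the stage 5 library of replicate 1 and 0.0785 when only stages 4tt and 5 were fitted. CTELG00000000273.1 fell by 2.94 (SE 0.46, adjusted p = 0.036), a call kept in 9 of 20 alternative settings, with adjusted p values between 0.00581 and 0.205. Its neighbour CTELG00000000274.1 fell by 2.46 (SE 0.23, adjusted p = 0.00698), which became adjusted p = 0.0515 and 0.0642 without replicate 1 of stage 4tt and of stage 5.

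**Figure D3:**
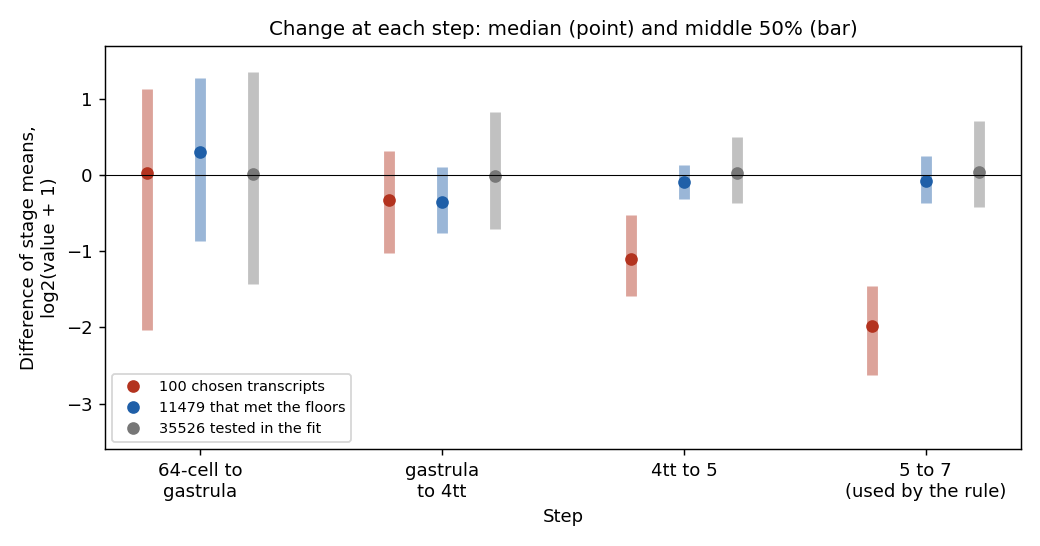
Median log2 difference between consecutive stages, on the scale of log2 (normalized read count + 1), for the 100 members, the 11479 eligible features and all 35526 features tested, as points, with bars from the lower to the upper quartile. The medians of the members lie at 0.03, -0.33, -1.10 and -1.98, and the last of these was used to choose them.

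Over the 3 steps before stage 7, a fall was called in at least 1 step for 61 members, beside 26.9% of all features tested and 32.9% of eligible ones. Falls were called in at least 2 steps for 10 members, beside 1.19% and 2.204%. A rise was called in at least 1 step for 34 members, a share near those of 31.3% and 32.2% in the other sets. No step was called for 23 members, beside 48.9% and 40.3%. The mean was lower at every step through stage 7 in 24 members, against 8.01% of the eligible features. At stage 5 the mean was already below 10% of the 64-cell mean in 32 members, against 4.99% of the eligible features, and at or above the 64-cell mean in 26 members, against 45.96% of the eligible features.

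The step from stage 5 to stage 7 was the contrast that chose the members. Their median log2 difference was -1.98, and 93 of the 100 were called lower, beside 2.08% of all features tested and 2.67% of eligible ones, which describes the choice. The 100 rows came out of the same 10 libraries, so the level at stage 7 was also read in libraries that a choice had not used. The rule was run on the replicate 1 library of each stage alone, and the 100 features it gave, 50 of them members, were read in the replicate 2 libraries. There, stage 7 was below all 4 earlier stages in 78 of the 100, against 27.8% of the features that met the floors, and more than 2-fold below stage 5 in 64, against 3.75%. With the choice on replicate 2, which shared 58 features with the members, the replicate 1 libraries gave 82 and 73, against 26.0% and 8.45%. The median log2 difference between stage 7 and stage 5 in the libraries not used was -1.38 in the former case and -1.94 in the latter, against -0.04 and -0.08 over the features that met the floors.

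The replicates of the members lay further apart than those of the eligible features. The median size of the log2 difference between replicates was 0.22, 0.37, 0.46, 0.34 and 0.32 at the 5 stages in order, against 0.20, 0.20, 0.28, 0.27 and 0.18. At stage 5 the replicate 2 library was the lower one for 67 members, while it was lower for 5461 of the 11479 eligible features. Replicate 2 was the lower library at both stages 4tt and 5 for 50 members, the higher one at both for 28, and the sign differed for 22. Across the 100 members the replicate differences at stages 4tt and 5 had a Pearson correlation of 0.60, against 0.22 across all features tested, where the points of each set share the same 4 libraries. The features tested reach lower levels than the members, and the correlation over the eligible features was not taken. Level is therefore not matched between these correlations.

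**Figure D4:**
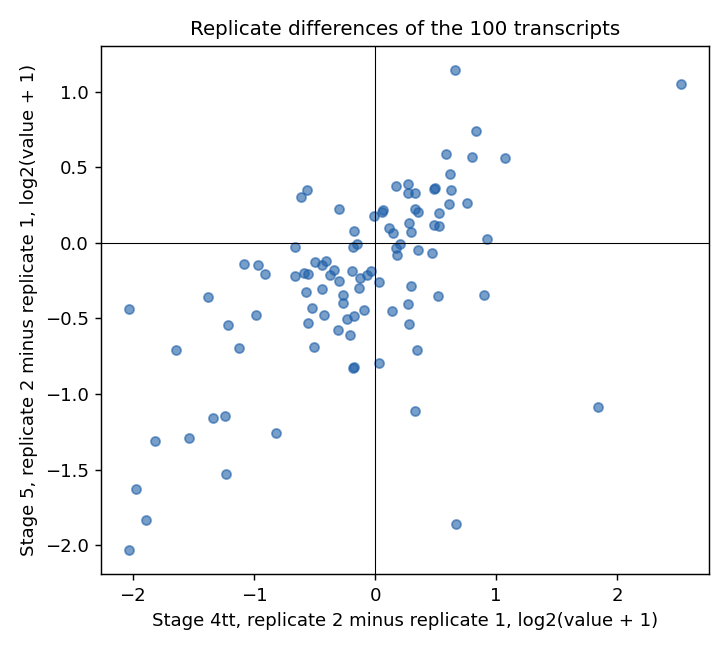
Log2 difference of replicate 2 from replicate 1 at stage 4tt (horizontal axis) and at stage 5 (vertical axis), with 1 point for each of the 100 members. 50 points lie in the lower left part, where replicate 2 is the lower library at both stages, and 28 in the upper right.

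The 100 members belonged to 98 genes. A single transcript model was annotated for the genes of 89 members, against 76.2% of the eligible features, and 11 members came from genes with other models. For 7 of these 11 no other model of the gene was a member, and those models were not read by the rule, so their sum can be tested between stage 5 and stage 7. Pseudo-alignment divides reads among models of a gene, so a shift of reads between models can lower the one and raise the other. The sum of the other models was called in neither direction in any of the 7 genes with limma, beside 0.788% called lower and 1.83% called higher among 6222 features whose gene has other models. An unadjusted p under 0.05, at any size of change, was found for 1 of the 7. Among the 6222 features it was found for 784 in the higher direction and 516 in the lower.

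In the gene of CTELG00000004732.1 the other model was at 4378 and 5566 at stage 5 and 5589 and 5225 at stage 7, a log2 fold change of 0.13 (95% CI -0.32 to 0.58, adjusted p = 0.760). The member made up 22.7% and 9.64% of the gene's normalized reads at stage 5 and 0.999% and 0.00811% at stage 7. At the 64-cell stage the models had been about even, the member holding 45.8% and 54.4% of the gene. Its share was 44.9% and 64.5% in the gastrula and already 16.9% and 27.0% at stage 4tt. The gene of CTELG00000015078.1 has 3 other models, whose sum was 1142 and 1081 at stage 5 and 1250.4 and 1327 at stage 7, a log2 fold change of 0.21 (95% CI -0.17 to 0.60, adjusted p = 0.529). That member held 42.9% and 24.5% of its gene at stage 5 and 0.438% and 4.04% at stage 7.

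The sum of the 3 other models of the gene of CTELG00000008487.3 was 2072 and 2235 at stage 5 and 2461 and 2693 at stage 7 (log2 fold change 0.26, 95% CI -0.07 to 0.59, adjusted p = 0.352). The member's share of the gene was 27.8% and 29.4% at stage 5 and 6.43% and 9.10% at stage 7. For CTELG00000011071.2 the log2 fold change of the other model was 0.30 (95% CI -0.09 to 0.68, adjusted p = 0.362), and the share of the member was 19.7% and 4.85% at stage 5 and 1.87% and 0.92% at stage 7. In all 4 of these genes the lower bound of the interval lay above a log2 value of -1, the fall that a call requires. The bound also lay above -1 for the genes of CTELG00000005282.1 and CTELG00000000812.1, described next.

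In the remaining 3 of the 7 genes the other models had lower means at stage 7, and none passed the test. The other model of CTELG00000005282.1 was at 1268 and 1553 at stage 5 and 1007 and 906 at stage 7, a log2 fold change of -0.55 (95% CI -0.99 to -0.11, unadjusted p = 0.0194, limma adjusted p = 0.152). The other model of CTELG00000000812.1 was far more abundant than the member, at 104123 and 72028 at stage 5 and 63595 and 65071 at stage 7, with a log2 fold change of -0.43 (95% CI -0.90 to 0.04, adjusted p = 0.283). The other model of CTELG00000002578.1 was too low to compare, at 15.7 and 12.2 at stage 5 and 0 and 21.6 at stage 7 (log2 fold change -1.64, 95% CI -4.64 to 1.35, adjusted p = 0.533).

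**Figure D5:**
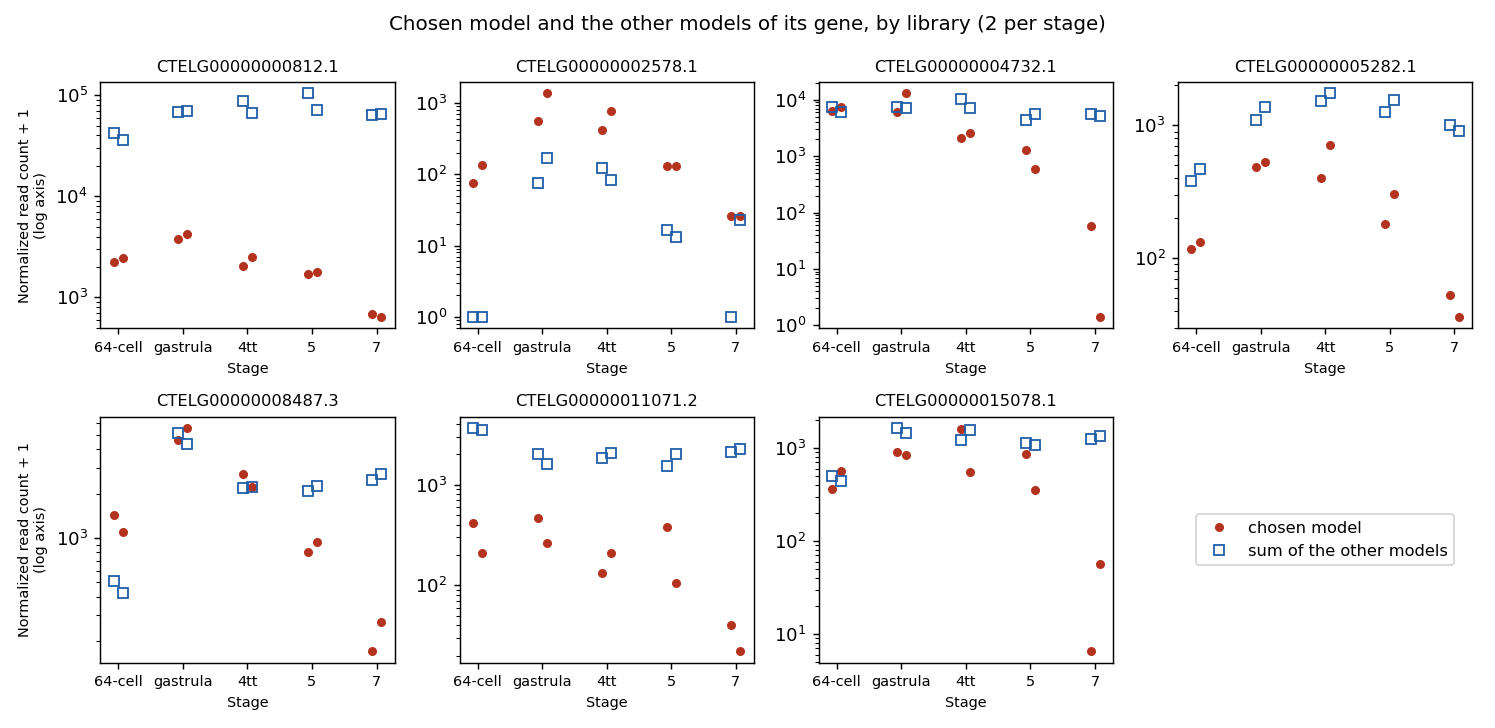
Normalized read count plus 1 (log scale) by stage for the member and for the sum of the other models of its gene, in the 7 genes where no other model is a member, with a circle (member) and a square (sum) for each library. For CTELG00000004732.1 the other model is at 5589 and 5225 at stage 7, where the member is at 56.4 and 0.424.

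The remaining 4 members came in pairs from the same gene, so their rows are not separate genes. Both models of 1 gene were members, CTELG00000024138.1 and CTELG00000024138.2. The former was at 14832 and 13371 at the 64-cell stage, 4664 and 2642 in the gastrula, 1178 and 288 at stage 4tt, 261 and 63.0 at stage 5, and 14.1 and 7.84 at stage 7, and the latter followed at 6189 and 3249.7, 2668 and 1602, 1232 and 331, 314 and 87.2, and 6.45 and 11.1. In both models the replicate 2 library was the lower one at every stage before stage 7. Since the other models of these genes include a member, whose fall to stage 7 the rule fixed, no test of them is read. CTELG00000001409.1 and CTELG00000001409.2 are models of a gene with 1 more, CTELG00000001409.3, which was at 374 and 275 at stage 5 and 94.6 and 132 at stage 7.

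Some members carried consecutive identifiers, a pattern picked out after their values were seen. There were 8 such runs with 18 members in all. Runs among the eligible features were not counted, so whether this number is unusual was not tested. The sources used here do not state whether the order of identifiers follows that of genes along the genome. The run CTELG00000021842.1 to CTELG00000021844.1 held 3 members with unlike levels. CTELG00000021842.1 was at 53.1 and 107 at the 64-cell stage and never above 107 in any library, with 57.5 and 51.9 at stage 5 and 3.91 and 4.84 at stage 7, while its neighbours CTELG00000021843.1 and CTELG00000021844.1 were at 2085 or more in both gastrula libraries.

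The run CTELG00000011828.1 to CTELG00000011830.1 held 3 members of like course. CTELG00000011829.1 was at 3168 and 5807 at the 64-cell stage, 170.3 and 739 in the gastrula, 455 and 579.7 at stage 4tt, 277 and 169.5 at stage 5, and 4.16 and 18.9 at stage 7. CTELG00000011830.1 was at 1254 and 2177, 98.0 and 304, 207 and 352, 71.4 and 85.8, and 4.69 and 11.8 at the same stages. The gastrula library of replicate 2 was the higher one in all 3. CTELG00000028780.1 and CTELG00000028781.1, also consecutive, went opposite ways from the 64-cell stage to the gastrula, with log2 fold changes of 3.03 (SE 0.71, adjusted p = 0.00666) and -6.12. Genes with nearly the same sequence can share reads in pseudo-alignment, and the sequences of these members were not compared here.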

How the data were processed

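Strand-specific mRNA libraries were sequenced. The authors trimmed adaptors, pseudo-aligned reads to gene models with kallisto (v0.46.2) and normalized read counts with DESeq2 (v1.30.1), and the deposited signal is this normalized read count, neither a raw count nor scaled to a fixed total. Library sums were between 32883200 and 55846793. The paper gives an approximate depth in reads, but the values used here are not raw counts, so no count test was run. Features above 2 in at least 2 libraries were kept (35526 of 41221), and log2(value + 1) was fitted with limma (v3.58.1, R v4.3.3, trend), 1 coefficient per stage, all 10 libraries, without a replicate block. Fold changes on this scale understate those of low features. The fit was tested on simulated data. Other work used Python (v3.11.15) with matplotlib (v3.10.9), numpy (v2.4.6) and pandas (v2.3.3).

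The members and lists were chosen with earlier results of these data known. Named were the 6 members with the highest score, the 4 highest at stage 5, 3 on each side of the border, at most 2 called rises and 2 called falls per step before stage 7, the 3 highest at stage 7, and members with other models. None of the identifiers (0) matched a gene of the assembly Capca1, so no gene names, cell type markers or sequences were used. Alternatives were other scaling, pseudocounts, filters, array weights, the replicate block, fits of only both stages, fold thresholds, gene sums, other floors and leaving out each library.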

Additional observations from a re-analysis of the deposited data

How the results depend on the processing

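Members called higher and lower were counted apart, so an alternative could change the size of a count but not its direction. With a log2 fold change above 2 required, 18 members rose from the 64-cell stage to the gastrula, beside 1344 of the 11479 eligible features. From the gastrula to stage 4tt, 0 members rose and 11 fell, beside 2 and 146 eligible features. Falls from stage 4tt to stage 5 were called for 5 members, beside 11 eligible features, and 49 were lower at stage 7, beside 85. With no fold required, 30 falls were called between the gastrula and stage 4tt, beside 3091 eligible features and 3821 of the 35526 features tested. The 17 falls from stage 4tt to stage 5 became 9 with a pseudocount of 0.1, 8 with array weights and 0 when only the compared stages were fitted. The other models of the 7 genes with a single member were called in neither direction under any alternative. Scaling by median ratios moved the median log2 difference of all features from the 64-cell stage to the gastrula from 0.02 to -0.10, and then 23 members were called higher and 38 lower.

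Leaving out each library in turn gave 26 to 28 rises and 32 to 37 falls from the 64-cell stage to the gastrula, 2 to 9 rises and 16 to 21 falls to stage 4tt, with 2 rises without the gastrula library of replicate 1, and 0 rises and 0 to 16 falls to stage 5. It gave 28 to 95 members lower at stage 7, with 28 and 51 without replicates 1 and 2 of stage 7 and 39 without replicate 1 of stage 5, and 0 calls in either direction among other models. The lone library left at a stage was taken to vary as other stages did. The choice itself shared 63 to 100 features with the members when a library was left out, 63 and 73 without replicates 2 and 1 of stage 7, and 79 to 99 under other pseudocounts, floors, stage means or scaling.

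With the replicate number as a block, members called higher and lower were 28 and 37 in the first step, 7 and 21 in the next and 0 and 22 from stage 4tt to stage 5, and 96 were lower at stage 7. Deviations of libraries with the same number had correlations between -0.01 and 0.22 over features tested and between -0.10 and 0.60 over the members. Since not every pair of stages was above 0.1 in either set, the numbers were not taken as pairs. The causes of these changes were not tested. The score took the higher stage 7 library, so the value near 1 read in CTELG00000004732.1 (0.424) did not enter it.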
